A study of Bos taurus with 16 samples.

Results

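SSTR1, PIEZO2, FXYD3 and PQLC3 encode a hormone receptor, an ion channel, a regulator of the sodium pump and a small membrane protein of the PQ-loop family. The 4 entries were chosen by their measured levels in these same libraries, because each was much higher in granulosa cells than in cumulus cells. They are 4 of the 36824 gene entries of a read count table from cattle (Bos taurus). The difference between the cell types is therefore given here as a description, with no test. Differences between the sides of the ovary and correlations over granulosa libraries did not enter that choice, and these were tested.

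The study asked whether closeness to the corpus luteum, the gland that forms after ovulation and secretes progesterone, goes with a different RNA content of the follicle. It has 4 groups with 4 libraries each: ipsilateral granulosa, contralateral granulosa, ipsilateral cumulus and contralateral cumulus. Ipsilateral means the same ovary as the corpus luteum, and contralateral the opposite one. Each library is a pool from 3 animals, and the tests set differences against the spread between such pools. Whether an animal contributed to more than 1 group is not stated in the labels. The tests treat all libraries as independent, so any such sharing of animals is ignored. No treatment or genetic change is named for any group, and all material came from follicles emptied by ovum pick-up, in which follicular fluid is drawn from the living animal. The age of the animals is not given in the sources used here.

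Granulosa cells line the wall of the follicle, respond to follicle-stimulating hormone through cyclic AMP and make estradiol. Cumulus cells descend from the same layer but surround the oocyte, with which they exchange small molecules through gap junctions. Signals reach both through receptors in the cell membrane, and the composition of the follicular fluid depends in part on ion transport across the granulosa layer. SSTR1 binds somatostatin, a peptide that acts through inhibitory G proteins and lowers cyclic AMP. PIEZO2 is a cation channel that opens when the membrane is stretched or indented and is best known, in mouse and human, for touch and the sense of limb position. FXYD3 crosses the membrane once and modulates the sodium pump, the enzyme that exchanges sodium for potassium ions. PQLC3 is now called SLC66A3, and relatives in its family carry amino acids out of the lysosome.

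Libraries held 10.1 to 21.9 M counts (M, mega). Levels are in CPM, the counts of an entry per 1 M counts of its library, with TMM factors (trimmed mean of M-values). An observed 0 leaves room for 3 counts, or 0.135 to 0.316 CPM depending on the library. That limit covers counting error only, since PCR copies of 1 molecule are counted as separate reads. The cell type labels could be checked only in part: none of the 17 granulosa and none of the 14 cumulus marker genes looked for is in the table by name. The oocyte markers BCL2L10 and H1FOO stood at 111 and 92.2 CPM in contralateral cumulus library 4, above every other library. They were at 9.63 and 8.95 CPM in contralateral cumulus library 2 and at 5.53 and 5.23 CPM in contralateral granulosa library 3. Values without one of these libraries are given beside some results. For results that changed sign, the closing section gives the range with each library left out.

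**Figure D1:**
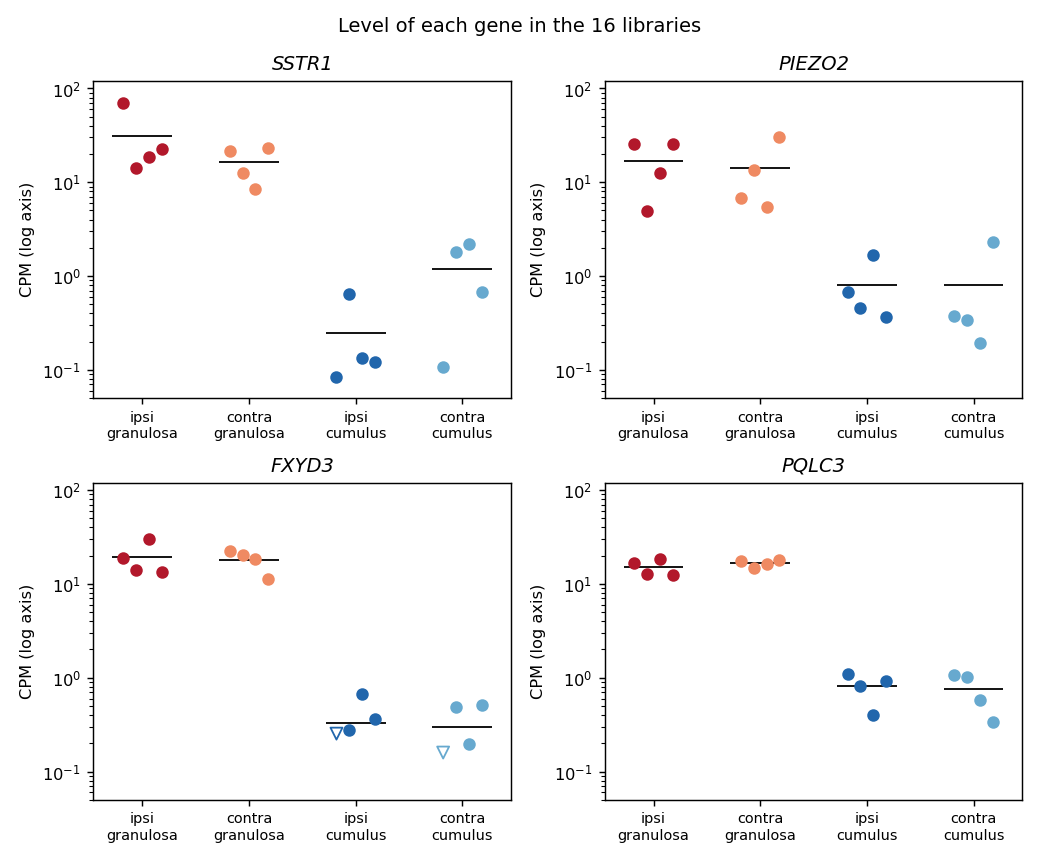
CPM of SSTR1, PIEZO2, FXYD3 and PQLC3 in the 16 libraries on a log axis, with 1 point per library, libraries 1 to 4 from left to right in each group and bars at the group means. Open triangles mark libraries with 0 counts, drawn at the level that 3 counts would give. Granulosa and cumulus points do not overlap for any of the 4 genes, and the gap is narrowest for PIEZO2 (lowest granulosa 4.98 CPM, highest cumulus 2.32 CPM).

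SSTR1, the somatostatin receptor, had 69.1, 14.2, 18.8 and 22.9 CPM in the ipsilateral granulosa libraries, 21.6, 12.5, 8.40 and 23.4 CPM in the contralateral granulosa libraries, 0.0845, 0.641, 0.134 and 0.122 CPM in the ipsilateral cumulus libraries and 0.106, 1.80, 2.20 and 0.678 CPM in the contralateral cumulus libraries. Granulosa and cumulus libraries did not overlap, and ipsilateral granulosa library 1 stood far above the other 7 granulosa libraries. The mean was 23.9 ± 19.1 CPM in granulosa cells and 0.721 ± 0.832 CPM in cumulus cells (SD, n = 8 each). In edgeR's fit to all 16 libraries the granulosa level was higher by 5.42 ± 0.57 (SE) on the log2 scale. The ratio of means was 127 on the ipsilateral side and 13.8 on the contralateral side. The ipsilateral ratio stands on 12 counts summed over 4 cumulus libraries, whereas the contralateral cumulus libraries held 85. In bulk libraries such as these, fewer cells of a type and less RNA per cell cannot be told apart.

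PIEZO2, the mechanically gated channel, had 25.5, 4.98, 12.4 and 25.3 CPM in the ipsilateral granulosa libraries, 6.86, 13.6, 5.48 and 30.7 CPM in the contralateral granulosa libraries, 0.676, 0.458, 1.68 and 0.365 CPM in the ipsilateral cumulus libraries and 0.372, 0.340, 0.194 and 2.32 CPM in the contralateral cumulus libraries. In each granulosa group high and low libraries stood side by side. In cumulus cells, ipsilateral library 3 and contralateral library 4 were above the rest. The lowest granulosa library was 2.15 times the highest cumulus library, the narrowest gap among the 4 genes. The mean was 15.6 ± 10.2 CPM in granulosa cells and 0.800 ± 0.771 CPM in cumulus cells (SD, n = 8 each), a fitted log2 difference of 4.26 ± 0.59 (SE). Without contralateral cumulus library 4, the one with the high oocyte markers, the difference was 4.95, and without that library and contralateral granulosa library 3 together it was 5.08.

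FXYD3, the sodium pump regulator, had 19.1, 13.9, 30.4 and 13.4 CPM in the ipsilateral granulosa libraries, 22.6, 20.5, 18.4 and 11.3 CPM in the contralateral granulosa libraries, 0, 0.275, 0.672 and 0.365 CPM in the ipsilateral cumulus libraries and 0, 0.486, 0.194 and 0.509 CPM in the contralateral cumulus libraries. In cumulus cells it had no read in ipsilateral library 1 and contralateral library 1, and no library above 10 counts. These zeros allow up to 0.253 CPM and 0.159 CPM in those 2 libraries. The lowest granulosa library was 16.8 times the highest cumulus library. The mean was 18.7 ± 6.11 CPM in granulosa cells and 0.313 ± 0.242 CPM in cumulus cells (SD, n = 8 each), and the fitted log2 difference was 5.83 ± 0.46 (SE). The ratio of means was 58.6 on the ipsilateral and 61.1 on the contralateral side.

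PQLC3, the PQ-loop protein, had 16.6, 12.8, 18.5 and 12.4 CPM in the ipsilateral granulosa libraries, 17.5, 14.7, 16.2 and 18.1 CPM in the contralateral granulosa libraries, 1.10, 0.825, 0.403 and 0.913 CPM in the ipsilateral cumulus libraries and 1.06, 1.02, 0.583 and 0.339 CPM in the contralateral cumulus libraries. All 8 granulosa values were close together, and no cumulus library approached them. The mean was 15.9 ± 2.34 CPM in granulosa cells and 0.780 ± 0.301 CPM in cumulus cells (SD, n = 8 each). The fitted log2 difference was 4.33 ± 0.24 (SE), and the lowest granulosa library was 11.3 times the highest cumulus library. The ratio of means was 18.6 on the ipsilateral and 22.1 on the contralateral side.

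As background, edgeR called 30.3% of the 18038 entries tested higher in granulosa cells (adjusted p under 0.05) and 60.2% in either direction. The contrast chose the 4 genes, so no call is read for them. By the size of the fold change, FXYD3 was number 11, SSTR1 number 14, PQLC3 number 25 and PIEZO2 number 26 among the 750 tested entries that the table lists by symbol. Among all 18038 entries, most of which carry only an Ensembl number, FXYD3 stood at 232, SSTR1 at 285, PQLC3 at 529 and PIEZO2 at 554. The median entry differed by −0.03 on the log2 scale.

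The side of the ovary was compared next, first within granulosa cells. None of the 4 genes differed between ipsilateral and contralateral granulosa libraries at an adjusted p under 0.05, and neither did any other of the 16411 entries tested (0 called by edgeR, 0%). An unadjusted p under 0.05 was reached by 579 entries, DESeq2 called 1 entry and limma-voom 0. SSTR1 averaged 31.2 ± 25.5 CPM in ipsilateral and 16.5 ± 7.20 CPM in contralateral granulosa libraries (SD, n = 4 each). Its log2 fold change was 0.94 ± 0.53 (SE; 95% interval −0.25 to 2.12; edgeR, adjusted p = 0.9996). The groups overlapped, and without ipsilateral granulosa library 1 the log2 fold change was 0.18.

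The estimates between sides in granulosa cells were smaller for the channel and the other 2 proteins. PIEZO2 averaged 17.0 ± 10.1 CPM in ipsilateral and 14.2 ± 11.6 CPM in contralateral granulosa libraries (SD, n = 4 each), and edgeR's log2 fold change was 0.27 ± 0.63 (SE; 95% interval −1.13 to 1.68). This estimate was 0.98 without contralateral granulosa library 4 and −0.01 without contralateral granulosa library 3. For PIEZO2 the interval is wide enough to hold a difference of either sign. FXYD3 averaged 19.2 ± 7.89 CPM in ipsilateral and 18.2 ± 4.91 CPM in contralateral granulosa libraries (SD, n = 4 each), and edgeR's log2 fold change was 0.08 ± 0.31 (SE; 95% interval −0.60 to 0.77). PQLC3 averaged 15.1 ± 2.98 CPM in ipsilateral and 16.6 ± 1.52 CPM in contralateral granulosa libraries (SD, n = 4 each), and edgeR's log2 fold change was −0.14 ± 0.20 (SE; 95% interval −0.58 to 0.31). PQLC3 thus had the narrowest interval of the 4 and PIEZO2 the widest. Adjusted over all entries tested by edgeR, p was 0.9996 for each of the 4 genes. Exact two-sided permutation tests on log2 CPM gave p = 0.343 for SSTR1, 0.743 for PIEZO2, 0.886 for FXYD3 and 0.343 for PQLC3, where 4 libraries against 4 allow no p below 0.0286.

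**Figure D2:**
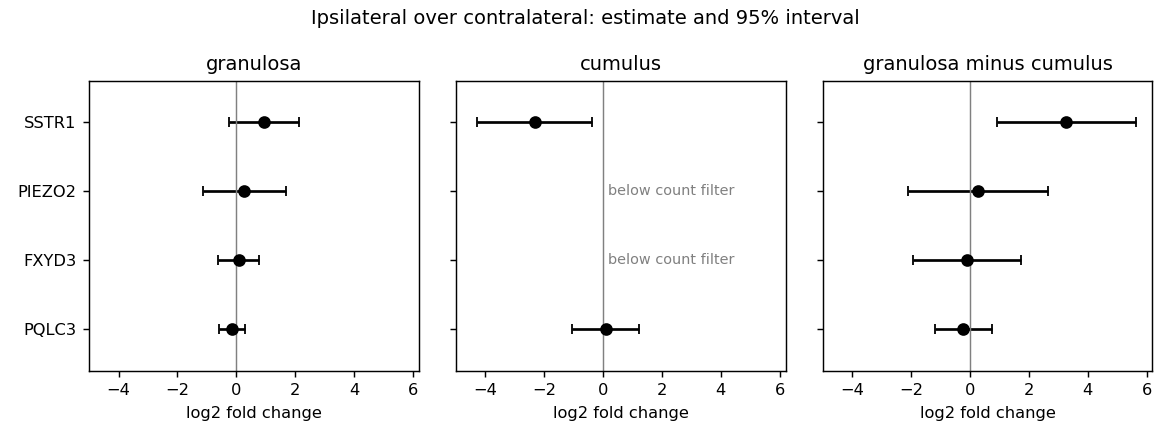
Log2 fold change of ipsilateral over contralateral libraries in granulosa cells, in cumulus cells, and the granulosa value minus the cumulus value, with points at edgeR's estimates and bars for the 95% interval. PIEZO2 and FXYD3 had too few counts in cumulus cells for the middle panel. The SSTR1 estimate is 0.94 in granulosa cells, where its bar crosses 0, and −2.33 in cumulus cells. The bars of the other genes all cross 0. None of the estimates passed the threshold after adjustment.

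In cumulus cells only SSTR1 and PQLC3, 2 of the 4 genes, had enough counts for edgeR's fit. No entry of the 16323 tested was called between sides in cumulus cells by edgeR (0%), with 1791 at an unadjusted p under 0.05. DESeq2 called 120 entries there, none of them a member, and limma-voom called 0. SSTR1 averaged 0.245 ± 0.265 CPM in the ipsilateral and 1.20 ± 0.972 CPM in the contralateral cumulus libraries (SD, n = 4 each). Contralateral libraries 2, 3 and 4 were above every ipsilateral library, but contralateral library 1 lay within the ipsilateral range, so the groups overlapped. The log2 fold change was −2.33 ± 0.89 (SE; 95% interval −4.28 to −0.38). SSTR1 was among the entries at an unadjusted p under 0.05 but did not pass the threshold over all entries (edgeR, adjusted p = 0.416). An exact permutation test on log2 CPM gave p = 0.171. The counts behind it were 12 in the ipsilateral and 85 in the contralateral cumulus libraries, and 4 of the 8 cumulus libraries had at most 3. Contralateral cumulus library 2, the one with 9.63 CPM of BCL2L10, held 37 of the 85. Without that library, or without contralateral cumulus library 4, SSTR1 had too few counts for the fit.

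The other 3 genes had few counts in cumulus cells of both sides, from 6 to 21 per library for PQLC3, 3 to 41 for PIEZO2 and 0 to 10 for FXYD3. PQLC3 averaged 0.810 ± 0.294 CPM in the ipsilateral and 0.751 ± 0.350 CPM in the contralateral cumulus libraries (SD, n = 4 each), and the log2 fold change was 0.08 ± 0.52 (SE; 95% interval −1.05 to 1.22; edgeR, adjusted p = 0.971). Without contralateral cumulus library 4 the PQLC3 log2 fold change was −0.15. PIEZO2 averaged 0.795 ± 0.604 CPM in the ipsilateral and 0.806 ± 1.01 CPM in the contralateral cumulus libraries. Its mean log2 CPM was higher by 0.30 on the ipsilateral side, opposite to the order of the CPM means (exact permutation test, p = 0.657). Without contralateral cumulus library 4 this PIEZO2 difference was 0.94. FXYD3 averaged 0.328 ± 0.277 CPM in the ipsilateral and 0.297 ± 0.244 CPM in the contralateral cumulus libraries, and its mean log2 CPM differed by 0.08 (exact permutation test, p = 0.886). No difference between sides in cumulus cells was detected for PIEZO2, FXYD3 and PQLC3.

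Of the 4 genes, SSTR1 had the largest estimate for the difference of the side effect between the cell types. Its log2 fold change between sides was 0.94 in granulosa cells and −2.33 in cumulus cells, neither past the threshold. The granulosa side difference minus the cumulus side difference was 3.27 ± 1.11 on the log2 scale (SE; 95% interval 0.91 to 5.63). This did not pass over the 18038 entries tested (edgeR, adjusted p = 0.653), although SSTR1 was among the 1358 entries at an unadjusted p under 0.05. No entry passed (0 called by edgeR, 0%), and DESeq2 called 1 and limma-voom 0. Without contralateral cumulus library 2 the SSTR1 value was 2.98. SSTR1 then passed the count filter through its granulosa libraries, with too few counts for a fit within cumulus cells. For PIEZO2 and FXYD3 this comparison has little to rest on, because both had too few counts for a fit within cumulus cells and passed the count filter here through their granulosa libraries. The same difference was 0.27 ± 1.11 for PIEZO2, −0.10 ± 0.86 for FXYD3 and −0.22 ± 0.45 for PQLC3 (SE; edgeR, adjusted p from 0.948 to 0.990). Their 95% intervals ran from −2.10 to 2.64, from −1.94 to 1.73 and from −1.19 to 0.74. For PIEZO2 and FXYD3 this leaves room for more than a 2-fold difference either way. Without contralateral cumulus library 4 the PIEZO2 value was −1.10.

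**Figure D3:**
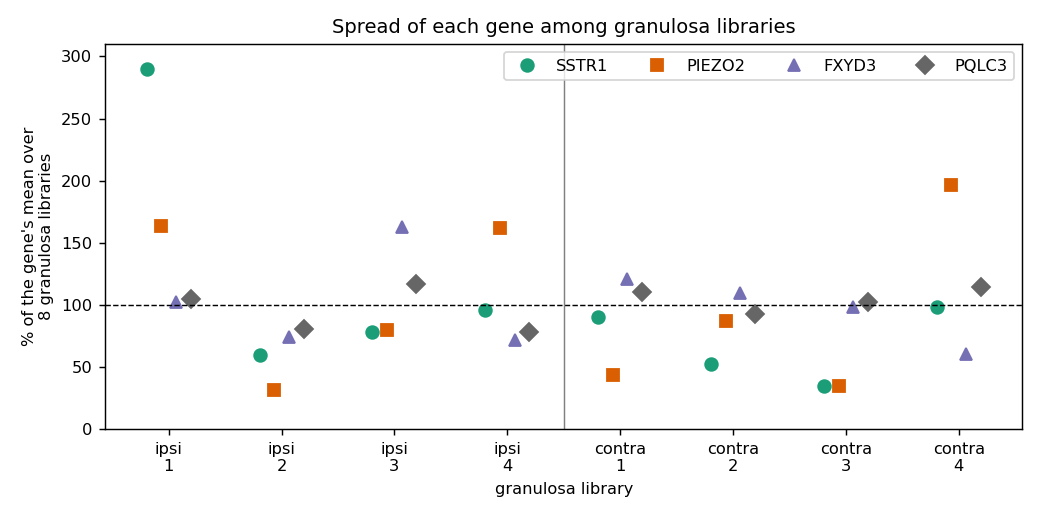
Level of each gene in each granulosa library as a percentage of the gene's mean over the 8 granulosa libraries, with 1 point per gene and library and a dashed line at 100%. PQLC3 stays close to the line (coefficient of variation 14.8%), and PIEZO2 spreads widely (65.3%). SSTR1 has 79.9%, with ipsilateral library 1 at 290% and the remaining libraries between 35.2% and 98.2%.

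The 4 genes differed in how steady they were among granulosa pools. The coefficient of variation over the 8 granulosa libraries was 79.9% for SSTR1, 65.3% for PIEZO2, 32.7% for FXYD3 and 14.8% for PQLC3. The highest library was 8.23 times the lowest for SSTR1, 6.18 times for PIEZO2, 2.70 times for FXYD3 and 1.50 times for PQLC3. The receptor and the channel thus had the highest values by both measures. For SSTR1 this rested largely on ipsilateral granulosa library 1, at 69.1 CPM. The remaining granulosa libraries lay between 8.40 and 23.4 CPM for SSTR1. edgeR's biological coefficient of variation, its estimate of the spread between pools of 1 side after counting error, was 51.4% for SSTR1, 60.9% for PIEZO2, 33.6% for FXYD3 and 24.8% for PQLC3. The median over the 16411 entries was 29.4%. It was lower than that of SSTR1 in 79.8% of the entries, than that of PIEZO2 in 86.8%, than that of FXYD3 in 57.4% and than that of PQLC3 in 39.3%. The counts behind these spreads ran from 170 to 1068 per granulosa library for SSTR1, from 65 to 563 for PIEZO2, from 185 to 475 for FXYD3 and from 166 to 328 for PQLC3.

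SSTR1 and PIEZO2 had the highest rank correlation of the 6 pairs of members among granulosa libraries. Across the 8 libraries Pearson's r of their log2 CPM was 0.655 (two-sided exact permutation, p = 0.0599, adjusted over 6 pairs 0.360), and Spearman's rho was 0.762 (exact permutation, p = 0.0368, adjusted 0.221). Neither passed after adjustment. Without ipsilateral granulosa library 1 and contralateral granulosa library 3, the 2 libraries farthest from the SSTR1 median, r was 0.513. FXYD3 and PQLC3 had r = 0.466 (exact permutation, p = 0.247, adjusted 0.742) and rho = 0.429 (p = 0.299, adjusted 0.582). For that pair contralateral granulosa library 4 decided the value, since it was the lowest for FXYD3 and among the highest for PQLC3. Without it r was 0.911 with an adjusted p of 0.0262 by exact permutation. That p is adjusted over the 6 pairs but not over the choice of the library left out, so no relation is concluded from it. When any other granulosa library was left out, the adjusted p lay between 0.706 and 0.899. Without contralateral granulosa library 4 and ipsilateral granulosa library 3, r was 0.906.

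The remaining 4 pairs had weak relations over the 8 granulosa libraries. Pearson's r was −0.308 for PIEZO2 and FXYD3, −0.0360 for SSTR1 and FXYD3, 0.114 for PIEZO2 and PQLC3 and 0.200 for SSTR1 and PQLC3 (two-sided exact permutation, adjusted p from 0.894 to 0.936). Spearman's rho was −0.310, −0.262, 0.238 and 0.262 for the same pairs (exact permutation, adjusted p = 0.582 each). Without the 2 libraries farthest from the median of the first gene, r was −0.376 for PIEZO2 and FXYD3, −0.230 for SSTR1 and FXYD3 and 0.343 for SSTR1 and PQLC3. For PIEZO2 and PQLC3 it was −0.490, so the sign of that weak relation rested on ipsilateral granulosa library 2 and contralateral granulosa library 4.

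**Figure D4:**
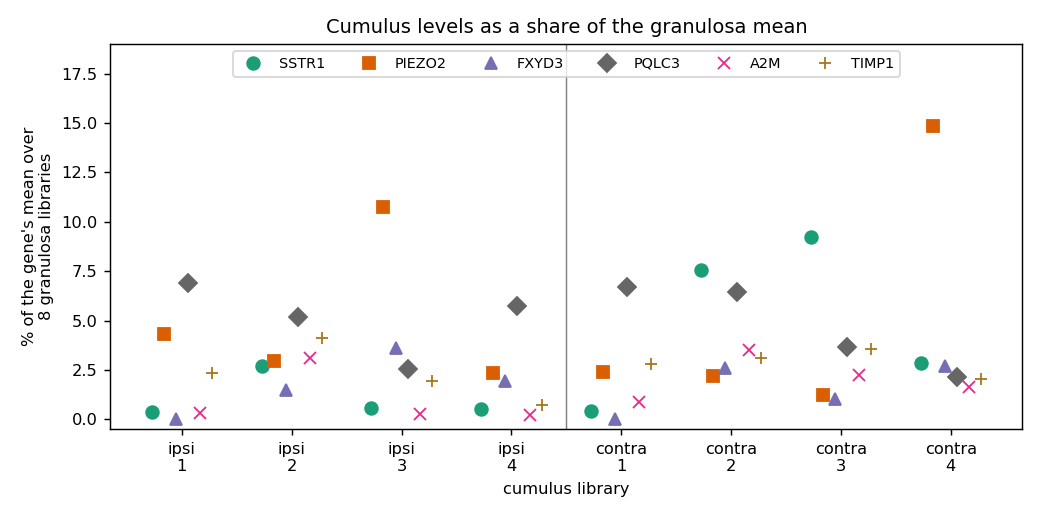
Level in each of the 8 cumulus libraries as a percentage of the same gene's mean over the 8 granulosa libraries, for SSTR1, PIEZO2, FXYD3 and PQLC3 and for A2M and TIMP1, which are abundant in granulosa libraries. PIEZO2 reaches 14.8% in contralateral library 4 and SSTR1 9.23% in contralateral library 3, whereas FXYD3 stays at or under 3.60% throughout.

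The few reads of the 4 genes in cumulus libraries were not spread in 1 fixed ratio. As a percentage of the granulosa mean, cumulus libraries held 0.354 to 9.23% for SSTR1, 1.24 to 14.8% for PIEZO2, 0 to 3.60% for FXYD3 and 2.14 to 6.92% for PQLC3. Contralateral cumulus library 3 held 9.23% of the granulosa level of SSTR1, with 3.68% for PQLC3, 1.24% for PIEZO2 and 1.04% for FXYD3. Contralateral cumulus library 4, the library with the high oocyte markers, held 14.8% for PIEZO2, with 2.84% for SSTR1, 2.72% for FXYD3 and 2.14% for PQLC3. SSTR1 thus stood out in the first of these libraries and PIEZO2 in the second. PQLC3 had the highest share in ipsilateral libraries 1, 2 and 4 and contralateral library 1, at 5.20 to 6.92%. In contralateral library 2 SSTR1 was highest, at 7.54%. Ipsilateral cumulus library 3 held 10.8% for PIEZO2, with 3.60% for FXYD3, 2.54% for PQLC3 and 0.563% for SSTR1.

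A2M, a protease inhibitor of body fluids, and TIMP1, an inhibitor of matrix metalloproteinases, are abundant granulosa transcripts here and were chosen after their values were seen. A2M averaged 544 ± 147 CPM and TIMP1 2012 ± 456 CPM in granulosa libraries (SD, n = 8). In cumulus cells A2M had 1.69, 16.8, 1.41 and 1.16 CPM in the ipsilateral libraries and 4.88, 19.2, 12.1 and 8.98 CPM in the contralateral libraries. The order resembles that of SSTR1, with ipsilateral library 2 and contralateral libraries 2, 3 and 4 at the top for both. TIMP1 had 46.9, 83.1, 38.9 and 14.9 CPM in the ipsilateral libraries and 56.1, 62.9, 71.9 and 41.1 CPM in the contralateral libraries. In contralateral cumulus library 3, A2M stood at 2.23% and TIMP1 at 3.57% of their granulosa means, against 9.23% for SSTR1. The part of granulosa RNA in the side difference of SSTR1 in cumulus cells was not tested.

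Markers of further cell types could be followed through 2 names. Of 12 erythrocyte and platelet markers 1 was found by name: PF4, a platelet chemokine, was at 0.448 to 3.90 CPM in granulosa libraries and had no counts in 6 of the 8 cumulus libraries. Of 12 markers of the ovarian surface epithelium 1 was found, the mucin MUC16. It had 9.97, 0, 44.2 and 0 CPM in ipsilateral and 0.738, 0.0529, 24.6 and 0 CPM in contralateral granulosa libraries. Ipsilateral granulosa library 3 was the highest for both MUC16 and FXYD3 (30.4 CPM). Contralateral granulosa library 3, second for MUC16, had 18.4 CPM of FXYD3. Contralateral granulosa libraries 1 and 2, next for FXYD3 at 22.6 and 20.5 CPM, had almost no MUC16. The 3 libraries with 0 MUC16 counts had 11.3 to 13.9 CPM of FXYD3, against 18.4 to 30.4 CPM in the other 5. Among those 5, contralateral granulosa library 2 had only 1 MUC16 count, which cannot be told from 0 at this depth. With it among the libraries without MUC16, the FXYD3 ranges would overlap. These points were noticed after the values were seen, and the part of such cells in the spread of FXYD3 was not tested.

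The pathways around the 4 genes are thinly covered by name. Of 96 genes in 7 lists, 8 were found: the 4 members, PQLC1, PQLC2, TMC1 and KCNJ6. None of the somatostatin peptides or other somatostatin receptors, none of the sodium pump subunits and no other FXYD protein was among them. The other 2 PQ-loop genes were both higher in granulosa cells on average over the sides, a comparison in which 30.3% of all entries were called higher. PQLC2 (SLC66A1), the lysosomal exporter of cationic amino acids, lay between 53.5 and 86.9 CPM in granulosa and between 21.3 and 34.0 CPM in cumulus libraries, without overlap. Its log2 fold change was 1.43 ± 0.12 (SE; edgeR, adjusted p = 3.93e-08). PQLC1 (SLC66A2), a further relative, lay between 2.50 and 7.96 CPM in granulosa and between 1.70 and 5.18 CPM in cumulus libraries, and these overlapped. Its log2 fold change was 0.68 ± 0.26 (SE; edgeR, adjusted p = 0.0343). By side, this PQLC1 estimate was 1.24 ± 0.38 for ipsilateral and 0.12 ± 0.37 for contralateral libraries (SE), so little difference was seen contralaterally. The estimate over both sides was no longer past the threshold when any 1 of 7 libraries was left out. It was 0.45 (edgeR, adjusted p = 0.103) without ipsilateral granulosa library 1. Neither passed a comparison of sides by edgeR. For PQLC1 in cumulus cells the ipsilateral minus contralateral log2 fold change was −0.97 ± 0.33 (SE; edgeR, adjusted p = 0.409), the same sign as for SSTR1. TMC1, a channel subunit of hair cells, and KCNJ6, a potassium channel opened by inhibitory G proteins, were at or under 0.458 and 0.131 CPM in every library and were not tested.

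The named genes most like each member were looked up among 468 entries with a name and a mean of at least 5 CPM in granulosa libraries. These correlations are a description over libraries that share depth and preparation. Each list takes the highest r out of the 468 entries, and how high r would reach by such picking alone was not tested. Over the 8 granulosa libraries SSTR1 was most like FAM49A (r = 0.921), and GALNT4 (0.822) was also on its list. PIEZO2 was most like CLYBL (0.867), TEDC1 (0.841) and C23H6orf106 (0.837). FXYD3 was most like MRPL14 (0.961), SKIC2 (0.926) and TIMP1 (0.860). PQLC3 was most like WARS (0.892), SEPT2 (0.801) and AARS (0.790). The genes named in the 4 lists are all different, and no member appears in the list of another. Among the listed genes, GALNT4 starts the sugar chains of mucins, MRPL14 is a protein of the mitochondrial ribosome, and WARS and AARS charge transfer RNAs with tryptophan and alanine.

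Over all 16 libraries the same measure mainly follows the gap between the cell types. SSTR1 was then most like SYN3 (r = 0.971), NAT16 (0.959) and A2M (0.950). PIEZO2 was most like TCTE3 (0.919), MARCH3 (0.917) and SLC25A24 (0.916). FXYD3 was most like TARS (0.971), MRPL14 (0.959) and SYN3 (0.957). PQLC3 was most like SEPT6 (0.986), ADNCR (0.986) and C8H9orf3 (0.984). MRPL14 was the gene that FXYD3 shared between both lists.

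How reads were shared between entries limits the levels of all 4 genes. PQLC3 had the same counts in every library as the entry ENSBTAG00000020297, which the sources used here do not name. This is not particular to PQLC3, since 2851 entries other than the members exactly repeat another entry. They were kept in the main fits, and so in the ranks and shares of called entries. For SSTR1, PIEZO2 and FXYD3 no entry had such equal counts, but each had an unnamed Ensembl entry that followed it closely over the 16 libraries. For SSTR1 this was ENSBTAG00000006582 (r = 0.990), with 1561 counts in all against 3181 for SSTR1. Its ratio to SSTR1 in granulosa libraries lay between 0.412 and 0.548. The closest entry had r = 0.978 and ratios of 0.388 to 0.559 for PIEZO2, and r = 0.993 and ratios of 0.466 to 0.554 for FXYD3. Whether such entries are the same gene counted again cannot be told from the table. In the RefSeq reference SSTR1 overlaps 1 other gene and PIEZO2 overlaps 2, and reads from such overlaps have no sure gene of origin in data without strand.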

How the data were processed

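Poly(A) RNA was converted with the SMART-Seq HT and Nextera XT kits, which keep no strand information, and read as single ends of 75 bp, per the labels' protocols. The tools in the submitters' processing notes are STAR, Trimmomatic, FastQC and DESeq2, with no versions; the genome build, the annotation and the counter are not stated there. The authors deposited raw counts per gene entry, and each column was matched to a sample by its title.

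Tests used edgeR 4.0.16 (filterByExpr with a minimum count of 10 and a minimum total of 15, TMM, robust quasi-likelihood F-test, Benjamini-Hochberg adjustment over all entries tested, threshold 0.05) in R 4.3.3. Sides were compared within the 8 libraries of each cell type, and cell types and the difference of side effects in 1 fit to 16 libraries with a mean per group. Log2 CPM used a prior count of 2, and permutation tests were exact (scipy 1.17.1). Alternatives were DESeq2 1.42.0, limma 3.58.1 (voom), RLE factors, no filter, repeats removed, and libraries left out. The edgeR step was tested on simulated data. Genes named are the 4 members, pathway genes found by name, and the 3 entries most like each member (1 entry is not reported here); exceptions are said to be chosen after their values were seen. The members and lists were chosen with earlier results of these data known. Entries were named from the table or from RefSeq genes of ARS-UCD2.0. Genome positions and sequences are not used here, and the planned promoter motif search was not run.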

Additional observations from a re-analysis of the deposited data

Results flagged for a closer look

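Of 16 sets of 4 libraries examined (4 genes in 4 groups), 3 held a library that stood apart by Dixon's criterion at the 95% level. Its chance rate of about 1 set in 20 holds for normally distributed values. CPM from few counts need not be such, so the 3 sets are not set against that rate. SSTR1 was at 69.1 CPM in ipsilateral granulosa library 1, the highest of 4, and the gap to the next library was 0.842 of the range. SSTR1 was at 0.641 CPM in ipsilateral cumulus library 2, with a gap of 0.910 of the range. That level is 7 counts, against 1, 2 and 2 in the other ipsilateral cumulus libraries. A2M was also highest of its group in library 2 (16.8 CPM). PIEZO2 was at 2.32 CPM in contralateral cumulus library 4, with a gap of 0.917 of the range; the oocyte markers BCL2L10 and H1FOO were at 111 and 92.2 CPM in that library. The part of these transcripts in the high values was not tested.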

How the results depend on the processing

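Of 469 recomputed values under alternatives, 423 were rated as unchanged, and 33 changed sign. For most values, unchanged meant the same direction and the same side of the threshold. For counts of called entries it meant an equal or similar number. For cell type differences of the members it meant the same sign and a shift smaller than the SD within groups. The cell type differences of the 4 members all kept their direction, from 5.04 to 5.89 (log2) for SSTR1, 3.90 to 5.08 for PIEZO2, 5.62 to 6.26 for FXYD3 and 4.21 to 4.43 for PQLC3. With DESeq2, 1 entry was called between sides in granulosa, 120 in cumulus and 1 for the difference of side effects, against 0 with edgeR; the cause was not tested. The difference of side effects of SSTR1 ran from 2.52 to 4.20 (adjusted p from 0.328 to 0.904). Its cumulus side difference was −3.30 without ipsilateral cumulus library 2. Each result that changed sign had missed its threshold at the settings reported. With contralateral cumulus library 4 and contralateral granulosa library 3 left out, the side difference was −0.0069 for PIEZO2 in granulosa and −0.152 for PQLC3 in cumulus, and the difference of side effects was −1.37 for PIEZO2 and 0.00415 for PQLC3. For PIEZO2 in cumulus it was −0.0101 with no filter, −0.0216 with DESeq2 and −0.0052 with 16 libraries in the fit, and limma-voom gave −0.0486 for its difference of side effects. Leaving out 1 library at a time, the granulosa side difference ranged from −0.0069 to 0.978 for PIEZO2 and from −0.233 to 0.219 for FXYD3. The cumulus one ranged from −0.0902 to 0.938 for PIEZO2, from −0.418 to 0.616 for FXYD3 and from −0.152 to 0.318 for PQLC3. The difference of side effects ranged from −1.10 to 0.967 for PIEZO2, from −0.481 to 0.487 for FXYD3 and from −0.462 to 0.0136 for PQLC3. Pearson's r ranged from −0.185 to 0.0371 for SSTR1 and FXYD3 and from −0.216 to 0.498 for PIEZO2 and PQLC3. PQLC1 also missed the threshold with no filter (adjusted p = 0.0522) and with both libraries left out (0.0640), within a range up to 0.103. No paired analysis was possible because the labels number no replicates within groups. The cumulus levels rest on 0 to 41 counts per library, so side differences of the 4 genes in cumulus cells are poorly resolved at this depth.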
